A study of Mus musculus with 6 samples.

Results

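Collagen genes were followed in inguinal white adipose tissue (IngWAT), the subcutaneous fat depot of the groin, of mice with and without the histone deacetylase HDAC3 in fat cells. They were found as the protein-coding genes whose symbol is Col, a number, a and a number, with at least 10 counts summed over all samples. Of 44 such symbols among the 46517 genes counted, 42 reached this sum. Col9a2 stood just inside with 10 counts, and Col9a1 with 6 and Col2a1 with 5 stood just outside. RNA-seq was done on 6 pools of RNA, 3 from Hdac3 floxed mice and 3 from H3atKO mice, and each pool held RNA of 2 or 3 animals. The mice had the strain label C57Bl6 and an age of 5 to 9 months, and they ate chow diet in standard housing. H3atKO mice came from a cross of the Hdac3 floxed line with the transgenic line B6:FVB-Tg(Adipoq-cre)1Evdr/J, in which the promoter of the adipocyte gene Adipoq drives the Cre recombinase, so that the deletion is aimed at fat cells and not at the stromal, vascular and blood cells of the depot. Floxed mice carried the floxed allele as well, and they were the control. Ages of the single mice were given only as a range.

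Collagens are the fibrous proteins of the extracellular matrix. Each is made of 3 chains that wind into a triple helix, and each chain can do so because glycine, the smallest residue, recurs all along its helical stretch with a pair of other residues in between. In adipose tissue, fibroblast-like stromal cells are known for the fibrillar types I, III and V, which form the fibres between cells. Fat cells, endothelial cells and pericytes lay down type IV, the network of the basement membrane around each of them, and type VI makes beaded filaments that lie against it. Fibril-associated collagens (FACIT) sit on the surface of fibres, and the multiplexins, types XV and XVIII, are proteoglycans of basement membrane zones.

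The glycine repeat is visible in the genes themselves. The stretches below are 54 bases each from the longest triple-helix run of 9 members, each inside 1 exon, read from the GENCODE M21 transcripts on GRCm38, with the glycine codon (GGN) that opens each repeat in capitals. They are shown because the repeat defines the family. Their GC content ran from 53.7% in Col4a1 to 68.5% in Col5a2 and did not follow that of the gene. The longest transcripts of these genes held 57.7% and 49.6% GC.
Col1a1 (exon 8 of 51, chr11:94939904-94939957, plus strand): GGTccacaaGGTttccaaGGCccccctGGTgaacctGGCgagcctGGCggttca
Col1a2 (exon 8 of 52, chr6:4515481-4515534, plus strand): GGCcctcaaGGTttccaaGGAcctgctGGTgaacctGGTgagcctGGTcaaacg
Col3a1 (exon 6 of 51, chr1:45325360-45325413, plus strand): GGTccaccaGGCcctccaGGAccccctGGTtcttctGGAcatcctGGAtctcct
Col5a2 (exon 10 of 54, chr1:45422386-45422439, minus strand): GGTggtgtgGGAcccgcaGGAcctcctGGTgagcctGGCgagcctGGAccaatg
Col5a3 (exon 15 of 67, chr9:20801068-20801121, minus strand): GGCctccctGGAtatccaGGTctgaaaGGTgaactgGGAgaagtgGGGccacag
Col4a1 (exon 3 of 52, chr8:11247042-11247095, minus strand): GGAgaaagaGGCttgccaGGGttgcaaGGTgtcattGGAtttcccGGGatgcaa
Col4a2 (exon 29 of 48, chr8:11429447-11429500, plus strand): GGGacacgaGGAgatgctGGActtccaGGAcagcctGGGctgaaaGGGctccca
Col6a2 (exon 6 of 28, chr10:76611948-76612001, minus strand): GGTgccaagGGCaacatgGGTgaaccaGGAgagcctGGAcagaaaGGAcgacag
Col18a1 (exon 12 of 41, chr10:77077693-77077746, minus strand): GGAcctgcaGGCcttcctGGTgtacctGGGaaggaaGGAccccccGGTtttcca

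Chains of the classes differed in how the repeat is laid out. Counted over runs of at least 5 glycine codons spaced 3 codons apart, the fibrillar chains Col1a1, Col1a2, Col3a1, Col5a1, Col5a2 and Col5a3 held 1 long run of 337 to 344 repeats. Type IV chains were broken into 22 to 27 runs, the longest of 39 to 66 repeats. In Col6a2 the longest run had 87 repeats, and in Col18a1 it had 30. GC content at the third codon position ranged from 28.4% in Col3a1 and 29.4% in Col5a2 to 53.1% in Col5a3, 55.4% in Col18a1 and 64.9% in Col6a2.

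The libraries held 23865507 to 35200685 counts on genes, and 3 counts, taken as the floor of detection, corresponded to 0.0659 to 0.190 cpm (counts scaled to the TMM-scaled library size), for counting error only. Hdac3 itself was at 68.9, 80.3 and 65.8 cpm in floxed and at 27.4, 21.1 and 12.9 cpm in H3atKO samples, with no overlap (log2 fold change -1.83, limma adjusted p = 0.0213). The fat cell marker Adipoq, at a mean of 2347 cpm in floxed and 2078 cpm in H3atKO, was abundant in both genotypes. It did not stand for all 6 fat cell markers measured, of which 5 had a negative log2 fold change (median -1.36). The libraries of the genotypes differed in composition. Mitochondrial genes took 6.92 to 12.9% of counts in floxed and 26.9 to 35.3% in H3atKO samples, and the relation of a gene's deviation to its GC content ran from positive in the floxed samples (Spearman's correlation across genes 0.800, 0.623 and 0.0969) to negative in the H3atKO samples (-0.433, -0.504 and -0.711). Since this relation orders the samples by genotype, it and the genotype cannot be told apart. The main results are therefore given as counted and after a correction that removes from every sample its own smooth dependence on GC content.

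As counted, collagen mRNA was less abundant in H3atKO IngWAT. Collagen genes took 0.703, 0.397 and 1.26% of the counts on nuclear genes in the floxed samples, a mean of 0.786% ± 0.438 (SD, n = 3). In the H3atKO samples they took 0.135, 0.128 and 0.138%, a mean of 0.134% ± 0.00520 (SD, n = 3). The genotypes did not overlap, and the means differed 5.89-fold. The floxed samples differed among themselves more than the H3atKO samples did, and floxed replicate 3 was the highest. This share was not corrected for GC content. Over the 34 collagens tested below, the median log2 fold change was -1.30 as counted and -0.29 after the GC correction. A bulk sample does not tell fewer collagen-making cells from less collagen mRNA in each of them.

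**Figure D1:**
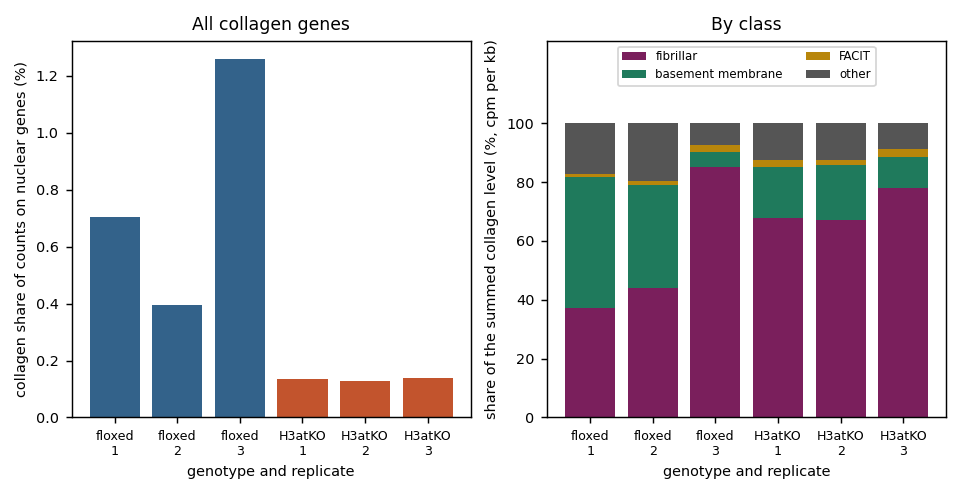
Left, the collagen share of the counts on nuclear genes (%) in each pool, with floxed in blue and H3atKO in orange. Right, the share of each class in the summed collagen level (%, from cpm per kb of transcript). The 3 H3atKO pools sit between 0.128 and 0.138% and the 3 floxed pools between 0.397 and 1.26%, and the fibrillar class takes 85.0% of the collagen level in floxed replicate 3 against 37.3% and 44.1% in the other floxed pools.

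For 34 collagen genes a level of 1 cpm was reached in some sample, and these were tested within the fit over all 14967 genes that did so. As counted, 10 of 34 were lower in H3atKO at a limma adjusted p under 0.05, and none was higher. Over all genes tested, 7.07% were called lower and 9.42% higher. The called genes were Col4a1 and Col4a2 of the basement membrane, Col5a1, Col5a2 and Col5a3 of the fibrils, Col6a1, Col6a2 and Col6a3 of the beaded filaments, and the multiplexins Col15a1 and Col18a1. The median log2 fold change of the 34 genes was -1.30, against -0.09 over all genes, and 29 of 34 were negative. By edgeR 12 were lower and none higher, against 18.4% and 12.8% of all genes, and at an unadjusted limma p under 0.05 there were 15 lower and 0 higher, where 23.4% of all genes were lower and 20.4% higher.

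After the GC correction 3 collagens were lower and none was higher at an adjusted p under 0.05 (background 3.06% and 5.55%), namely Col5a3, Col6a2 and Col18a1, and at an unadjusted p under 0.05 there were 6 lower and 3 higher (background 14.1% and 16.9%). The median moved to -0.29, against 0.03 over all genes, and 24 of 34 stayed negative. With the replicate number as a block, 18 were lower and none higher (background 28.7% and 24.8%). When block and GC correction were combined, 5 were lower, the former 3 with Col4a2 and Col5a2, and 3 were higher (Col11a2, Col13a1 and Col27a1; background 9.71% and 13.1%).

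The count also rested on single libraries. Without floxed replicate 2 no collagen was called, although 33 of 34 log2 fold changes were negative, 15 had an unadjusted p under 0.05 with a negative sign, and the lowest adjusted p was 0.0516. In that fit 0.0% of all genes were called lower and 0.00673% higher. Without floxed replicate 1 there were 5 lower, where 0.611% of all genes were called lower and 1.01% higher. Without H3atKO replicate 2 there were 3 (background 0.93% and 2.64%), without H3atKO replicate 1 there was 1 (0.317% and 1.34%), and without H3atKO replicate 3 there was also 1 (0.134% and 0.584%). Without floxed replicate 3 there were 13, where 25.9% of all genes were called lower and 18.5% higher. Every H3atKO sample lay below every floxed sample in 15 of 34 collagens, where 28.6% of all genes did so, and above in none of 34, where 23.1% of all genes did so.

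**Figure D2:**
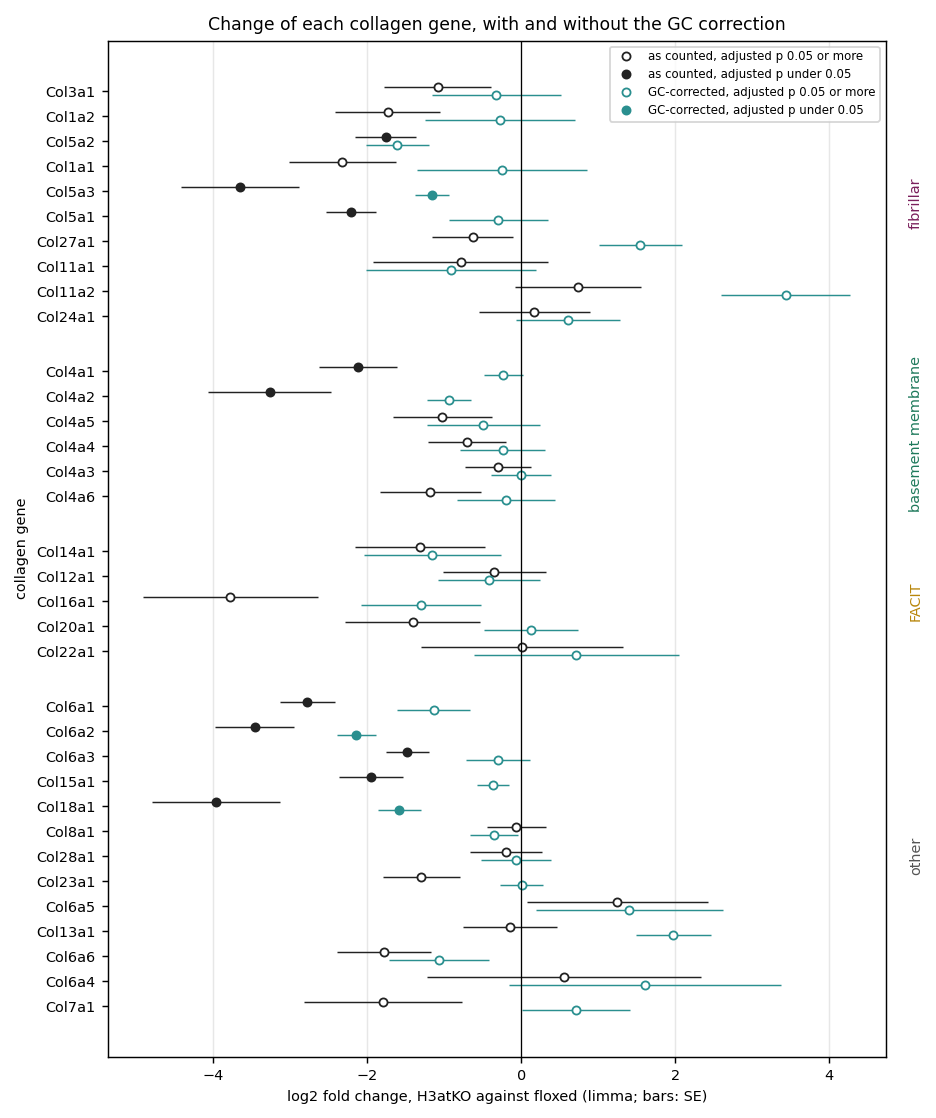
Log2 fold change of H3atKO against floxed with its SE for the 34 tested collagens, ordered by class and level, as counted (black) and after the GC correction (teal). Filled points have a limma adjusted p under 0.05. As counted 10 points are filled, all left of 0, and after the correction those of Col5a3, Col6a2 and Col18a1 remain.

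Of the 10 tested fibrillar collagens 3 were lower by limma, 1 after the GC correction and 5 with the replicate block. Their median log2 fold change was -1.41, or -0.29 corrected. Over all genes 7.07% were called lower by limma, 3.06% after the GC correction, 28.7% with the block and 18.4% by edgeR. At an unadjusted limma p under 0.05, 23.4% were lower, or 14.1% corrected. These shares apply to the counts of every class below. By mean cpm per kb, Col3a1 and Col1a2 were the most abundant fibrillar collagens. Col3a1, which encodes the only chain of type III, was counted 32562, 21418 and 164451 times in the floxed pools and 10861, 10399 and 10326 times in the H3atKO pools. Scaled, these were 714.9, 515.0 and 3997 cpm against 447.3, 530.2 and 652.8 cpm. Floxed replicate 3 stood far above the rest, and floxed replicate 2 lay within the range of H3atKO. The log2 fold change of Col3a1 was -1.08 (SE 0.69, adjusted p = 0.252 by limma), and -0.32 after the GC correction.

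Col1a2, the α2 chain of type I, was at 328.7, 236.5 and 1737 cpm in floxed and 132.9, 142.1 and 195.3 cpm in H3atKO samples. Col1a1, the α1 chain, is given as the partner of Col1a2, a choice made after its values were seen. It was at 175.3, 67.8 and 467.5 cpm against 27.3, 30.7 and 56.5 cpm. Neither gene overlapped between the genotypes, and in both floxed replicate 3 was the highest. The changes were -1.73 (SE 0.68, adjusted p = 0.0950) and -2.32 (SE 0.70, adjusted p = 0.0556) by limma. With the replicate block the adjusted p was 0.0267 for Col1a2 and 0.00562 for Col1a1, and edgeR gave 0.0514 and 0.0318. The GC-corrected changes were -0.28 and -0.25, with adjusted p values of 0.867 and 0.896 by limma.

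Type V collagen, which is buried in type I fibrils and is known for setting their diameter, was called in all its chains. Col5a1 was at 101.5, 63.4 and 108.4 cpm in floxed and 16.2, 20.6 and 21.7 cpm in H3atKO samples (log2 fold change -2.21, SE 0.32, adjusted p = 0.0149 by limma). Col5a2 was at 192.4, 141.7 and 396.9 cpm against 58.4, 61.6 and 79.0 cpm (-1.76, SE 0.40, adjusted p = 0.0333). Col5a3 was at 293.0, 110.1 and 53.98 cpm against 11.2, 13.1 and 5.56 cpm (-3.65, SE 0.76, adjusted p = 0.0296). None of the 3 overlapped between the genotypes. Col5a2 was highest in floxed replicate 3, like types I and III, while Col5a3 was highest in floxed replicate 1 and lowest in replicate 3.

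The 3 type V chains differed in how far the GC correction moved them. Col5a2, with 49.6% GC in its transcript, kept a change of -1.61 (adjusted p = 0.0576 by limma, and 0.0153 with the block added). Col5a1, with 58.0% GC, went to -0.30 (adjusted p = 0.777). Col5a3, with 61.6% GC, went to -1.16 and stayed called (adjusted p = 0.0296). Among the scarcer fibrillar genes, Col11a2, a chain of cartilage fibrils, was counted 47, 10 and 13 times in the floxed pools and 19, 7 and 23 times in the H3atKO pools, with a change of 0.74 (adjusted p = 0.497) that became 3.43 after the GC correction (adjusted p = 0.0523, and 0.0131 with the block). Col27a1 had 368, 167 and 164 counts against 120, 36 and 60, with a change of -0.63 that became 1.55 (adjusted p = 0.114, and 0.0223 with the block). Both overlapped between the genotypes in cpm, and they were singled out after their values were seen.

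**Figure D3:**
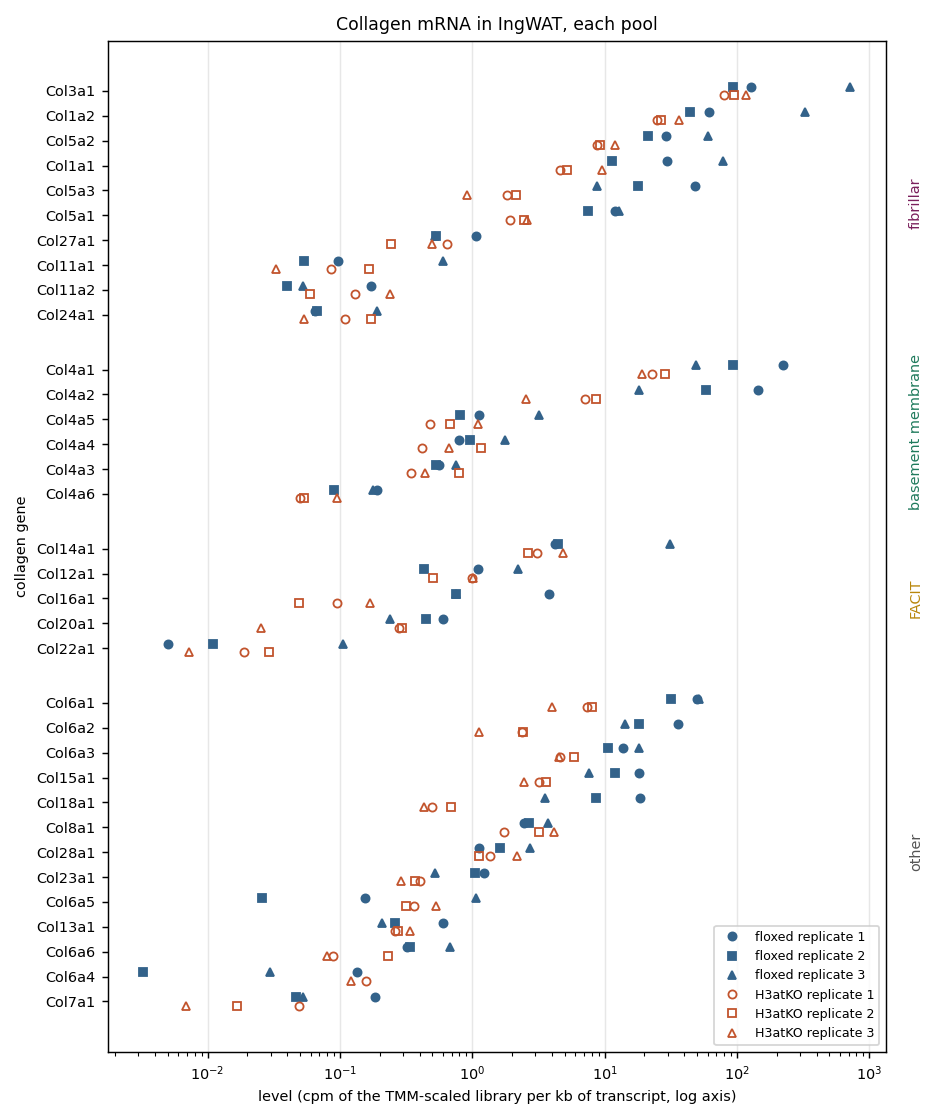
Level of the 34 tested collagens in each pool, in cpm of the TMM-scaled library per kb of transcript on a log axis, grouped by class, with floxed filled and H3atKO open. The 1 value of 0, Col6a4 in H3atKO replicate 2, is not drawn. Col3a1 runs from 80.4 to 718.4 and Col4a1 from 19.0 to 221.4 cpm per kb, and the floxed pool on the right is replicate 3 (triangle) in types I and III and replicate 1 (circle) in Col4a1, Col4a2, Col5a3, Col15a1 and Col18a1.

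In the basement membrane class 2 of 6 chains were lower by limma, and after the GC correction 0 were (1 at an unadjusted p under 0.05), with a median log2 fold change of -1.10, or -0.24 corrected. The called chains were Col4a1 and Col4a2, which encode the α1 and α2 chains found in nearly every basement membrane. Col4a1 was counted 66723, 25895 and 13397 times in the floxed pools and 3652, 3732 and 1989 times in the H3atKO pools, or 1465, 622.7 and 325.6 cpm against 150.4, 190.3 and 125.7 cpm. Its change was -2.12 (SE 0.51, adjusted p = 0.0376 by limma). Col4a2 was at 936.1, 378.1 and 117.1 cpm against 46.0, 55.9 and 16.4 cpm (-3.26, SE 0.80, adjusted p = 0.0386). Neither overlapped between the genotypes, and in both floxed replicate 1 was the highest and floxed replicate 3 the lowest floxed pool, unlike in Col3a1. After the GC correction Col4a1 was at -0.23 (adjusted p = 0.554) and Col4a2 at -0.93 (adjusted p = 0.0838, and 0.0338 with the block).

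These genes lie head to head on chromosome 8 (Col4a1 at chr8:11198423-11312826 on the minus strand, Col4a2 at chr8:11312805-11449287 on the plus strand), and their annotated starts are 21 bases apart, with 22 bases shared by their first exons. Such pairs are the rule for type IV. Col4a3 and Col4a4 start 72 bases apart on chromosome 1, and Col4a5 and Col4a6 start 1309 bases apart on the X chromosome. The chains of the other pairs, which make specialised membranes such as those of kidney, lung and muscle, were scarce and none was called. Col4a5 was the most abundant of them per length, at 7.33, 5.31 and 21.0 cpm in floxed and 3.13, 4.44 and 7.27 cpm in H3atKO samples (-1.02, adjusted p = 0.247 by limma, and 0.0348 with the block, and -0.49 after the GC correction).

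None of the 5 tested FACIT genes was called as counted, and the log2 fold changes had a median of -1.31, or -0.42 after the GC correction. At an unadjusted limma p under 0.05 there was 1 lower, and edgeR called 1 at an adjusted p under 0.05, in each case Col16a1. Col14a1, which binds fibril surfaces, was at 27.2, 28.8 and 201.3 cpm in floxed and 19.97, 17.1 and 31.5 cpm in H3atKO samples. Floxed replicate 3 again stood apart, and the other floxed pools lay within the H3atKO range (-1.31, SE 0.84, adjusted p = 0.253 by limma, and 0.0490 with the block, and -1.15 after the GC correction). Col16a1 was at 19.7, 3.896 and 3.889 cpm against 0.494, 0.255 and 0.885 cpm, with no overlap (-3.77, SE 1.13, adjusted p = 0.0556 by limma, 0.0235 by edgeR and 0.00631 with the block, and -1.30 after the GC correction). Col12a1, a relative of Col14a1, was at 12.8, 4.95 and 25.4 cpm against 11.4, 5.76 and 11.7 cpm (-0.35, adjusted p = 0.699 by limma, and -0.42 after the GC correction). All its H3atKO values lay between the lowest and the highest floxed value.

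Of the 13 tested collagens outside these classes 5 were lower by limma, 2 after the GC correction and 8 with the replicate block (medians -1.48 and -0.30 corrected). Type VI collagen was called in its 3 main chains. Col6a1 was at 206.0, 129.5 and 212.2 cpm in floxed and 30.3, 33.0 and 16.5 cpm in H3atKO samples (-2.78, SE 0.36, adjusted p = 0.0110 by limma). This was the lowest adjusted p among collagens, and the gene stayed called in 5 of the 6 fits that left out 1 sample. Col6a2 was at 175.3, 88.7 and 69.7 cpm against 11.6, 11.8 and 5.50 cpm (-3.46, SE 0.51, adjusted p = 0.0151). Col6a3, the long chain whose C-terminal piece is released as endotrophin, was at 140.1, 107.1 and 183.8 cpm against 46.7, 59.2 and 45.8 cpm (-1.48, SE 0.28, adjusted p = 0.0249). The genotypes were apart in all 3. As counted, the highest floxed pool exceeded the lowest 1.64- to 2.52-fold, against 4.499- to 7.991-fold in Col1a1, Col1a2, Col3a1, Col4a1 and Col4a2. The contrast with type IV did not stay after the GC correction. Floxed log2 cpm then ran from 6.12 to 7.68 in Col6a1, 5.76 to 6.24 in Col6a2 and 6.07 to 7.46 in Col6a3. It ran from 8.28 to 8.72 in Col4a1 and from 6.84 to 7.53 in Col4a2. After the GC correction the changes were -1.14 (adjusted p = 0.159) for Col6a1, -2.14 (adjusted p = 0.0118) for Col6a2 and -0.30 (adjusted p = 0.647) for Col6a3.

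The other type VI genes were low. Col6a5 was counted 65, 10 and 410 times in the floxed pools and 82, 57 and 78 times in the H3atKO pools, a spread of 41.4-fold in cpm within floxed, and its change was 1.25 (SE 1.17, adjusted p = 0.427 by limma), or 1.41 after the GC correction. It was singled out after its values were seen, since it was called higher with sample quality weights and without floxed replicate 3.

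Both multiplexins were called. Col15a1, an outer component of basement membranes of muscle and vessels, was at 94.1, 62.4 and 39.3 cpm in floxed and 16.4, 18.7 and 12.8 cpm in H3atKO samples (-1.95, SE 0.41, adjusted p = 0.0301 by limma). Col18a1, the source of endostatin, was counted 4694, 2010 and 821 times against 67, 76 and 38 times, or 103.1, 48.3 and 19.95 cpm against 2.76, 3.87 and 2.402 cpm. Its change of -3.96 (SE 0.83, adjusted p = 0.0298) was the largest among collagens. As in Col4a1, floxed replicate 1 was the highest pool as counted. After the GC correction Col15a1 was at -0.37 (adjusted p = 0.265) and Col18a1 at -1.58 (SE 0.28, adjusted p = 0.0261).

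Col8a1, a network-forming chain of vessel walls, overlapped between the genotypes throughout. It is given because it was the only gene with a mean of at least 10 cpm not yet given, a choice made after its values were seen. It was at 12.5, 13.6 and 19.0 cpm in floxed and 8.90, 16.4 and 21.1 cpm in H3atKO samples (-0.06, SE 0.39, adjusted p = 0.911 by limma, and -0.36 after the GC correction). The transmembrane Col13a1 had 86, 34 and 27 counts against 20, 17 and 17, with a change of -0.14 that became 1.97 after the GC correction (adjusted p = 0.0532 by limma, and 0.0287 with the block). It overlapped between the genotypes in cpm and was singled out after its values were seen.

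The remaining 12 tested members, Col4a3, Col4a4, Col4a6, Col6a4, Col6a6, Col7a1, Col11a1, Col20a1, Col22a1, Col23a1, Col24a1 and Col28a1, did not exceed 17.9 cpm in any sample. Their changes ran from -1.79 to 0.56, with 9 negative and a lowest adjusted p of 0.0710 by limma, and from -1.06 to 1.61 after the GC correction. With the replicate block Col6a6, Col7a1 and Col23a1 of these had adjusted p values of 0.0475, 0.0452 and 0.0146. The 8 members under the filter, Col8a2, Col9a2, Col9a3, Col10a1, Col17a1, Col19a1, Col25a1 and Col26a1, had at most 21 counts in a sample. Col2a1, the main collagen of cartilage, was counted 4, 0 and 1 times in the floxed pools and 0 times in each H3atKO pool. The 6 cartilage markers summed to 1.22 to 2.04 cpm in floxed and 0.663 to 1.90 cpm in H3atKO samples, and 1 of them, Comp, was tested and called lower by limma (adjusted p = 0.0342, and 0.115 after the GC correction).

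The classes did not hold the same part of the collagen pool in every sample. By level per kb, the fibrillar class held 37.3, 44.1 and 85.0% of the summed collagen level in floxed and 67.9, 66.9 and 78.0% in H3atKO samples. The basement membrane class held 44.4, 34.9 and 5.17% in floxed and 17.1, 19.0 and 10.4% in H3atKO samples. The groups overlapped in both, and these class shares were not corrected for GC content. Among the 34 tested genes the highest floxed pool was replicate 3 for 19, replicate 1 for 15 and replicate 2 for none. Floxed replicate 3 also had the most macrophage marker counts, with a summed 2220 cpm over 6 markers against 558.5 and 412.6 cpm in the other floxed and 354.0 to 636.1 cpm in the H3atKO samples. The 6 fibroblast and preadipocyte markers also summed highest in that pool, at 1804 cpm against 1136 and 1065 cpm in the other floxed pools. The part of these cells in the high type I and III levels of that pool was not tested.

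Markers of the cells that make collagen were measured in the same libraries. Over all genes 7.07% were called lower and 9.42% higher by limma, and 3.06% and 5.55% after the GC correction. By edgeR these were 18.4% and 12.8%. At an unadjusted limma p under 0.05 they were 23.4% and 20.4%, or 14.1% and 16.9% corrected. The counts of called markers below stand against these shares. The 6 fibroblast and preadipocyte markers summed to 1136, 1065 and 1804 cpm in floxed and 356.9, 461.9 and 504.2 cpm in H3atKO samples. Cd34 of this list is also known from endothelium. Of the 6 markers 3 were lower by limma (Pi16, Dpt and Clec3b), and 3 after the GC correction (Pi16, Dpt and Cd34). Summed collagen was 4.45, 2.50 and 4.47 times this marker sum in floxed and 3.01, 2.71 and 2.67 times in H3atKO samples. The genotypes thus overlapped in the ratio, which was not corrected for GC content. The median log2 fold change of the 6 markers was -1.55 as counted and -1.90 corrected. For the collagens these medians were -1.30 and -0.29. Pericyte and smooth muscle markers were lower in 4 of 6 (3 after the correction), with sums of 1476, 1228 and 407.4 against 494.7, 759.3 and 631.4 cpm. The pericyte marker Rgs5 had a positive log2 fold change of 0.98 (adjusted p = 0.0703 by limma and 0.0114 with the block, and 0.02 after the GC correction). Endothelial markers were lower in 2 of 6 before and after the correction, with sums of 963.5, 810.5 and 636.3 against 437.2, 581.7 and 445.3 cpm. As counted, floxed replicate 1 was the highest and replicate 3 the lowest floxed pool in both vascular lists, as in Col4a1, Col4a2 and Col18a1. The marker sums were not GC-corrected. After the correction the floxed log2 cpm values, in replicate order, were 8.72, 8.28 and 8.30 in Col4a1. They were 7.53, 7.31 and 6.84 in Col4a2, and 4.31, 4.32 and 4.29 in Col18a1. Schwann cell markers were lower in 2 of 6 (1 after the correction). Macrophage markers were lower in 1 of 6 (0 after the correction, and 1 at an unadjusted p under 0.05). Fat cell markers were called in 0 of 6 by limma and 1 of 6 by edgeR, and 1 had an unadjusted limma p under 0.05, with sums of 28610, 24312 and 13196 against 15227, 26334 and 16655 cpm. Most of each sum was Fabp4, at 10341 to 22051 cpm, with a log2 fold change of 0.05. The other 5 fat cell markers had negative changes, down to -3.04 in Lipe (adjusted p = 0.0524 by limma and 0.0318 by edgeR). The median of the 6 was -1.36, or -0.60 after the GC correction. Skeletal muscle markers were called in 0 of 6 by limma and by edgeR (4 lower at an unadjusted limma p under 0.05), and their sum ran from 577.4 to 2392 cpm in floxed and from 2.47 to 3157 cpm in H3atKO samples. Lymphocyte markers were called in 0 of 6 by limma and by edgeR (1 higher at an unadjusted limma p under 0.05), with sums from 4.64 to 102.9 and from 7.09 to 366.7 cpm. Epithelial markers, of which 3 were tested and 0 called by limma and by edgeR (0 at an unadjusted p under 0.05), summed to 0.842 to 3.84 and 0.255 to 10.1 cpm. The part of these cells in the collagen values was not tested.

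**Figure D4:**
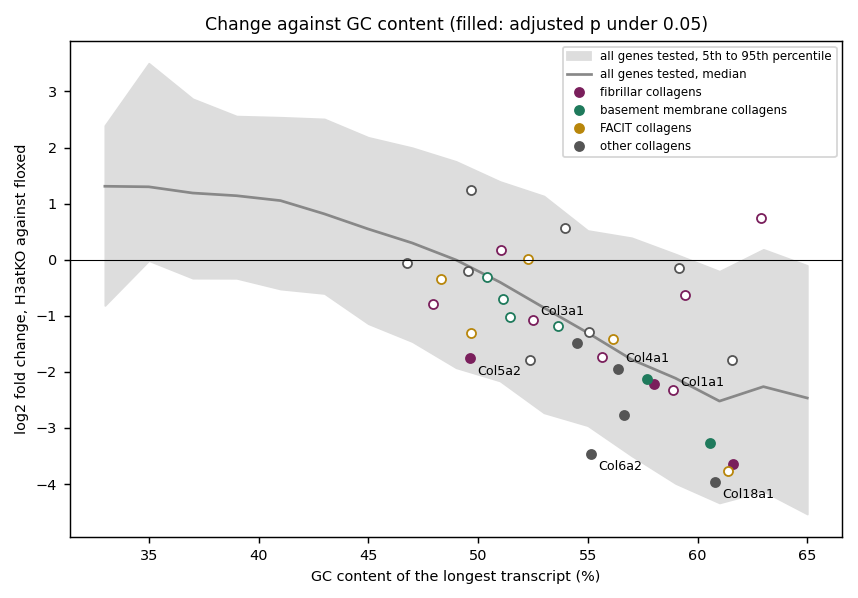
Log2 fold change of H3atKO against floxed (limma, y axis) against GC content of the longest transcript (%, x axis) for the 34 tested collagens, coloured by class and filled where the adjusted p is under 0.05. The grey line and band are the median and the 5th to 95th percentile of all genes tested in bins of 2 percentage points. Most collagens lie right of the middle of the axis, where the grey line is below 0, and Col6a2, Col18a1 and Col5a2 lie well under it.

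Collagen transcripts were rich in GC. The median GC content of the 34 genes was 54.8%, against 49.2% over all genes tested, and 31 of 34 lay above the latter. Across the 34 genes, which share the same 6 libraries, Spearman's correlation of GC content with the log2 fold change was -0.54, and it was -0.71 across 14922 genes. After the correction it was 0.06 across the collagens. Of the collagens with at least 55% GC 8 of 17 were called, and of those with less 2 of 17, Col5a2 and Col6a3. All 10 called genes were among the 16 collagens with a mean of at least 10 cpm, and 0 of the 18 below it were called.

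Chains of 1 collagen type were compared within each sample, per base of transcript, since this ratio is free of the library scaling. Col3a1 of type III was also set against Col1a1 of type I. For 6 pairs the genotypes were compared by two-sided exact permutation tests, in which 3 against 3 samples give 0.1 as the smallest p. Col4a1 exceeded Col4a2 by 1.53, 1.61 and 2.71 times in floxed and 3.19, 3.32 and 7.46 times in H3atKO samples. On the log2 scale the means were 0.91 ± 0.46 and 2.10 ± 0.69 (SD, n = 3, exact permutation p = 0.1, adjusted 0.2), a difference of 1.19 without overlap, and 0.71 without overlap after the GC correction. Col6a3 was at 0.276, 0.335 and 0.351 times Col6a1 in floxed and 0.625, 0.729 and 1.13 times in H3atKO samples, a log2 difference of 1.33 without overlap (exact permutation p = 0.1, adjusted 0.2) and of 0.85 after the correction.

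Col3a1 was at 4.35, 8.10 and 9.11 times Col1a1 in floxed and 17.5, 18.4 and 12.3 times in H3atKO samples, a log2 difference of 1.21 (exact permutation p = 0.1, adjusted 0.2) that turned to -0.14 after the GC correction. The other pairs overlapped as counted. The log2 difference was -0.56 for Col1a1 over Col1a2 (exact permutation p = 0.3, adjusted 0.4) and became 0.09 after the correction. For Col5a1 over Col5a2 it was -0.44 (exact permutation p = 0.4, adjusted 0.4) and became 1.35 without overlap. For Col6a1 over Col6a2 it was 0.69 and became 1.02 (exact permutation p = 0.4 and 0.3). No pair could pass 0.05 by this permutation test.

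**Figure D5:**
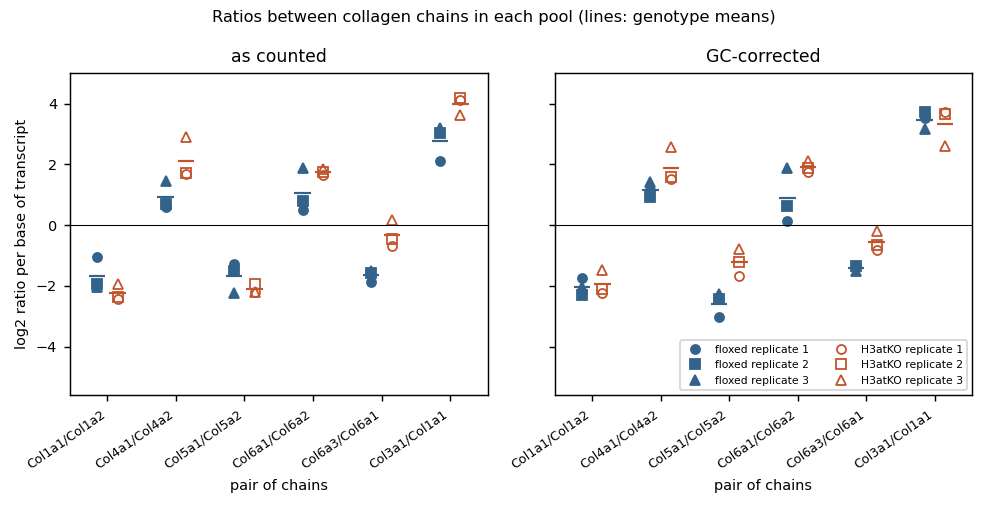
Log2 ratio of the levels per base of 2 collagen chains in each pool for 6 pairs, as counted (left) and after the GC correction (right), with floxed filled, H3atKO open and lines at the genotype means. Col4a1/Col4a2 and Col6a3/Col6a1 are higher in every H3atKO pool than in every floxed pool in both panels, while Col3a1/Col1a1 is so only on the left.

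Genes that build, process, break down and bind collagen were given by lists. Of 51 tested, 24 were lower and none was higher by limma, where 7.07% of all genes were lower and 9.42% higher. By edgeR 28 were lower and 0 higher (background 18.4% and 12.8%). At an unadjusted limma p under 0.05 there were 30 lower and 1 higher (background 23.4% and 20.4%). After the GC correction 1 was lower and none higher (background 3.06% and 5.55%). There were 22 lower and 3 higher after it at an unadjusted limma p under 0.05 (background 14.1% and 16.9%). With the replicate block 30 were lower and 2 higher (background 28.7% and 24.8%). With block and GC correction combined 16 were lower and 1 higher (background 9.71% and 13.1%). These shares over all genes apply to the counts of the single lists below as well. The median log2 fold change of the 51 genes was -1.83, or -0.80 after the correction. In the endoplasmic reticulum, where prolines and lysines of the chain are hydroxylated and the helix is folded, 10 of 20 genes were lower by limma, and after the correction 0 were (8 at an unadjusted p under 0.05). The collagen chaperone Fkbp10 was at 10.4 cpm in floxed and 0.889 cpm in H3atKO samples on average (-3.48, adjusted p = 0.0217 by limma, and -1.67 after the GC correction), and the prolyl 3-hydroxylase P3h3 at 8.23 and 0.814 cpm (-3.28, adjusted p = 0.0256, and -0.76 corrected). Outside the cell, where propeptides are cut off and chains are crosslinked, 9 of 12 were lower, and after the correction 1 was, the procollagen C-proteinase enhancer Pcolce2 (6 at an unadjusted p under 0.05). The C-propeptidase Bmp1 was at 38.7 and 3.12 cpm (-3.70, adjusted p = 0.0126 by limma, and -2.04 corrected). The N-propeptidase Adamts14 was at 2.68, 1.44 and 1.36 cpm in floxed and 0.329, 0.153 and 0 cpm in H3atKO samples, so near the floor that its fitted change depends on the prior count (-3.68, adjusted p = 0.0470 by limma, and -1.51 corrected).

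Of the genes for degradation and its inhibitors 4 of 11 were lower by limma, and after the correction 0 were (5 at an unadjusted p under 0.05). The named genes here were the collagen uptake receptor Mrc2 at 38.7 and 1.23 cpm (-4.53, adjusted p = 0.0493 by limma, and -2.49 corrected) and the gelatinase Mmp2 at 152.7 and 12.9 cpm (-3.47, adjusted p = 0.0120, and -2.12 corrected). Of the receptors 1 of 8 was lower, the integrin chain Itga11 at 9.74 and 0.774 cpm (-3.59, adjusted p = 0.0156 by limma, and -2.18 corrected), and after the correction 0 were (3 at an unadjusted p under 0.05).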

How the data were processed

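RNA-seq was measured in 3 pools of IngWAT RNA per genotype, each of 2 or 3 mice. From stranded poly(A) libraries the authors deposited raw counts per Ensembl gene, 1 table per sample, with reads trimmed, aligned to GRCm38 and counted with the tools named in the submitters' processing notes (cutadapt 1.3, STAR 2.4.2a, HTSeq 0.6.1). The strand setting of the counting is not given in the sources used here. Exon bases shared with other genes were at most 6.07% of a collagen gene. The last 5 lines of each table, tallies of reads given to no gene, were left out. Multiply aligned reads are in those tallies (28.3 to 35.2% of alignments in floxed, 43.8 to 45.5% in H3atKO).

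Symbols, GC content and transcript lengths came from GENCODE M21 (GRCm38), in which 46005 of 46517 identifiers matched. The longest transcript stood for each gene. As in the study's methods, the 14967 genes that reached 1 cpm in any sample were scaled by TMM (edgeR 4.0.16) and compared by limma 3.58.1 (voom) in R 4.3.3, with Benjamini-Hochberg adjustment over all of them and calls at 0.05. The GC correction subtracted from each sample a robust loess curve (span 0.3) of its deviations from the gene means on GC content, from 14922 genes. Samples with the same replicate number deviated together (correlations of deviations from the group means 0.510, 0.389 and 0.264), so the number was used as a block in a second fit. The labels do not say what the replicate number stands for. The correlation with GC content also fell from replicate 1 to 3 in floxed (0.800, 0.623 and 0.0969) and in H3atKO (-0.433, -0.504 and -0.711). The part of this order in the shared deviations was not tested. DESeq2 1.42.0, edgeR's quasi-likelihood test, other scalings and filters, and each sample left out were alternatives.

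Values in every sample are given for called members and for the 3 members of each class with the highest mean cpm per kb, and for a few singled out in the text. Of each list of other collagen-related genes, the 2 with the largest called change are named. Members and lists were chosen with earlier results of these data known. The labels do not say whether the pools shared mice, and p-values measure the spread between these pools.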

Additional observations from a re-analysis of the deposited data

How the results depend on the processing

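The 10 collagens called lower had a negative change under all 17 refits. The count of collagens called lower was 16 by DESeq2, 18 with library sizes alone, 18 with the replicate block, 3 with the GC correction, 5 when block and GC correction were combined, 0 at an adjusted p under 0.01 and 15 at one under 0.1. With each sample left out it ran from 0 (without floxed replicate 2) to 13 (without floxed replicate 3). The count called higher, 0 as reported, was 1 with sample quality weights (Col6a5), 3 when block and GC correction were combined (Col11a2, Col13a1 and Col27a1), and 0 to 1 with each sample left out (1 without floxed replicate 3). The median log2 fold change was -2.15 with library sizes alone, a scaling that moved the median of all genes by -0.85, and it was -0.76 with sample quality weights, -0.29 with the GC correction and -0.22 with the block added. Leaving out each sample gave -1.59 to -1.28. In this balanced design the replicate block leaves the mean difference of a chain ratio, such as 1.19 for Col4a1/Col4a2, at the same value by construction. The log2 difference of chain ratios turned sign with the GC correction for Col1a1/Col1a2 (0.088), Col5a1/Col5a2 (1.35) and Col3a1/Col1a1 (-0.14).

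Among the 22 collagens with values given in every sample, these turned sign. Col6a5 was at -0.054 by edgeR and -0.012 by DESeq2, and ran from -0.032 to 2.56 with each sample left out. Col8a1 was at 0.039 by edgeR and 0.10 by DESeq2, and ran from -0.30 to 0.32 with each sample left out. Col11a2 was at -0.12 with library sizes alone. Col12a1 was at 0.63 with sample quality weights, and ran from -0.96 to 0.20 with each sample left out. Col13a1 was at 0.046 with sample quality weights, 1.97 with the GC correction and 1.95 with the block added, and ran from -0.44 to 0.32 with each sample left out. Col27a1 was at 1.55 with the GC correction and 1.66 with the block added. None of these genes was called as reported. Leaving out a sample leaves fewer samples in the fit, with the spread pooled over the rest. For the other settings the cause was not tested. The ratio of Col8a1 to Col8a2 was not computed, since Col8a2 was under the filter. Depth limits the members with few counts, for which 3 counts per sample are the floor.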
